A study of Brassica oleracea with 107 samples.

Results

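The 150 genes described here were higher at 26 °C than at 16 °C on days 1 and 3 in both embryo and endosperm from developing seeds of Brassica oleracea, to which cabbage and broccoli belong. They were chosen by those values, so their rise on these days is a description and not a finding. For each gene listed for both tissues, 4 differences were taken, 26 °C minus 16 °C on days 1 and 3 in each tissue, and genes were ranked by the smallest of the 4. The scale was log2(TPM + 1), where TPM, a relative transcript abundance, corrects reads for the length of the gene and for the total of the library. Genes had to reach 1 TPM in at least 1 embryo group at 16 °C and to differ by no more than 2 log2 units (4-fold) between days 0 and 22 in embryo at 16 °C. Of 19732 genes in the series, 9726 were listed for both tissues, 5513 of these were eligible, and the first 150 were taken.

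A seed of the cabbage family holds an embryo, a thin endosperm that feeds and then surrounds it, and a seed coat that is tissue of the mother plant. During maturation the embryo fills its cells with oil and storage protein, becomes tolerant of drying and may become dormant. In Arabidopsis, a relative in the same family, warmth during maturation speeds seed development and lowers dormancy. Seedlings of that species sense mild warmth in part through phytochrome light receptors and growth-promoting transcription factors that these receptors hold back, while stronger heat acts through heat shock factors and chaperone proteins.

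Per the labels, plants were kept at 21 °C up to bolting, then at 16 °C up to the bent-cotyledon stage of the embryo. From there they stayed at 16 °C (cool) or moved to 26 °C (warmth), and a recovery group went from 26 °C back to 16 °C. Embryo was dissected on days 0, 1, 3, 7, 15, 18 and 22, and endosperm, which here includes the seed coat, on the same days and at hours 1, 24 and 72 of a separate series. Day 0 exists for the cool group only, and recovery for days 18 and 22. The labels give 107 libraries in 36 groups, with 3 libraries each except 2 for endosperm at 16 °C on day 18. The labels name neither a cultivar nor the event from which days or hours were counted. The series title names germination beside seed development, and the labels do not say which samples, if any, were germinating.

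The deposited tables hold 1 TPM value per group, so a difference between groups has no replicate check, no p-value is given, and the read depth is unknown. A gene is counted below as higher or lower when 2 groups differed by at least 1 log2 unit, that is 2-fold on log2(TPM + 1), and this scale understates the change of weakly expressed genes. Per the labels, the tables hold differentially expressed genes, by a rule not given in the sources used here, so neither they nor the 150 are independent evidence of a temperature response. None of the 19732 identifiers matched the gene table used here, so no gene is named by function and markers of embryo, endosperm or seed coat could not be looked up. RNA came from whole dissected parts, in which fewer cells of a type and less RNA per cell cannot be told apart. Endosperm libraries of days 7 to 22 were made with the Ovation kit and all others with a standard Illumina protocol, so endosperm days 0 to 3, days 7 to 22 and the hours were never set against each other.

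The endosperm groups labelled 26 °C and recovery on day 18 stood further apart than their counterparts on day 22. Over all genes tested, recovery was 2-fold above 26 °C in 22.2% and below it in 8.7% on day 18, against 3.43% and 2.2% on day 22. The day 18 comparison of endosperm with 16 °C is therefore given with each of these groups in turn, and changes over time that rest on the one labelled 26 °C are named as such.

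On day 1 the median level of the 150 genes was 29.7 TPM in warmth against 8.10 TPM in the cool in embryo, and 47.8 and 10.3 TPM in endosperm. On day 3 it was 21.5 and 6.37 TPM in embryo, and 46.0 and 9.89 TPM in endosperm. The median log2 difference was 1.65 on day 1 and 1.45 on day 3 in embryo, and 1.58 and 1.59 in endosperm. By their choice, 150 genes were 2-fold higher in embryo on both days and 149 in endosperm on both days. Of all genes tested, 9.26% were 2-fold higher on day 1 and 5.43% on day 3 in embryo, and 7.43% and 9.79% in endosperm. No member was 2-fold lower, where 3.93% and 0.79% of all genes tested were lower in embryo on days 1 and 3, and 2.77% and 3.7% in endosperm. Nothing is read from these shares, since the same groups chose the genes. The last gene taken, Bo7g110880, had a smallest difference of 0.999, and the first left out, Bo3g101050, one of 0.996. The list thus ends close to a 2-fold difference, with no gap between the genes inside and outside it.

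The levels beside day 0 are also a description, since the groups of days 1 and 3 chose the genes and embryo day 0 entered the limit on the course. In embryo, all 150 genes stood above their day 0 level at 26 °C on day 1, 130 of them by 2-fold, while 1 of 150 was 2-fold below day 0 at 16 °C. Endosperm was alike, with 144 genes 2-fold above day 0 at 26 °C on day 1 and 1 gene 2-fold below at 16 °C. On day 3 in embryo, 95 genes were 2-fold above day 0 at 26 °C and 4 were 2-fold below at 16 °C, where the median had moved by -0.35. On day 3 in endosperm the corresponding counts were 134 and 3. Of the eligible genes, 10.2% in embryo and 8.82% in endosperm were 2-fold above day 0 at 26 °C on day 1, and 4.5% and 11.5% on day 3. At 16 °C, 0.544% and 0.218% were 2-fold below day 0 on day 1, and 0.435% and 0.562% on day 3.

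The rule asked for a large difference on both days, so the values of days 1 and 3 are set side by side without reading stability from them. In embryo 96 of the 150 genes had the larger difference on day 1, in 4 of them by 1 log2 unit or more, and none was larger by that much on day 3. In endosperm 73 had the larger difference on day 1, in 2 by 1 log2 unit or more, and 8 were larger by that much on day 3.

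**Figure D1:**
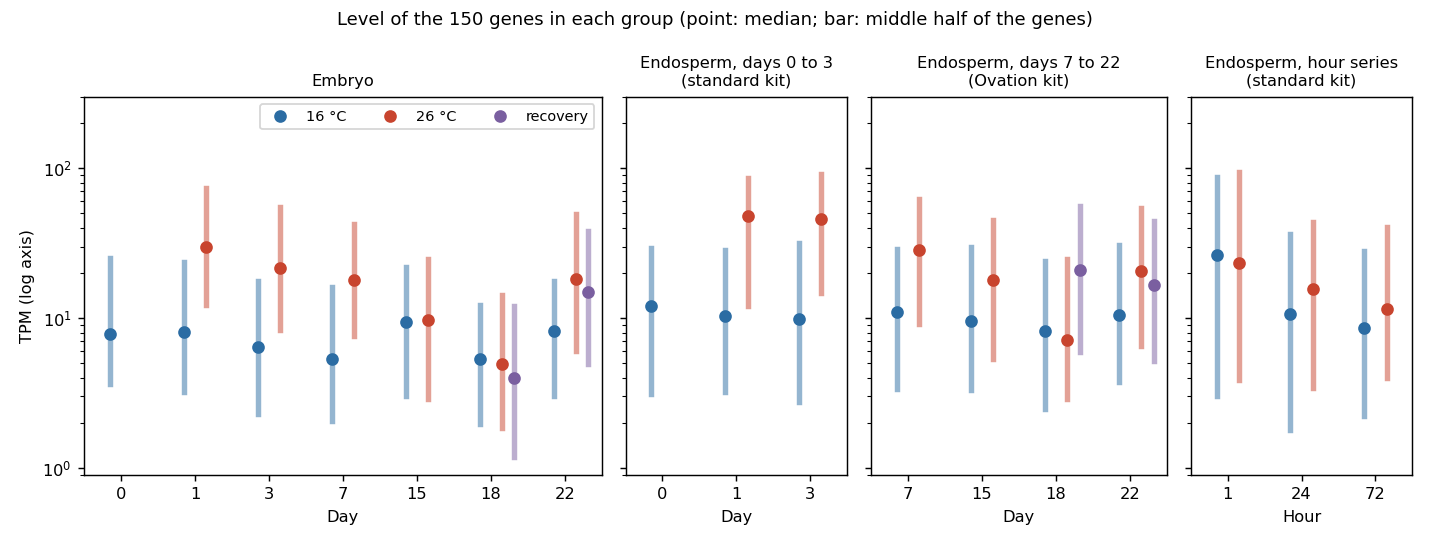
Level of the 150 genes in TPM on a log axis, by day or hour, in embryo and in the 3 endosperm sets; points are medians over genes, bars the range between the quartiles, and colours the temperature groups. The medians at 26 °C lay above those at 16 °C on days 1, 3, 7, 15 and 22 in both tissues, by little on embryo day 15 (9.71 against 9.46 TPM), and below them on day 18 (4.97 against 5.36 TPM in embryo). In endosperm on day 18 this rests on the group labelled 26 °C (7.12 against 8.19 TPM), while the one labelled recovery was at 20.8 TPM.

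Bo5g008160 stood first by the rule. In embryo at 16 °C it was at 0.43, 0.35, 0.41, 0.24, 1.51, 0.79 and 4.37 TPM on days 0, 1, 3, 7, 15, 18 and 22. At 26 °C it was at 35.4, 24.4, 24.1, 24.9, 12.8 and 51.9 TPM on days 1 to 22, and in recovery at 3.92 TPM on day 18, then at 32.2 TPM on day 22. Every embryo value at 26 °C was thus above every embryo value at 16 °C. In endosperm at 16 °C it was at 9.18, 7.79 and 8.65 TPM on days 0, 1 and 3, against 74.1 and 66.0 TPM at 26 °C on days 1 and 3. On days 7, 15, 18 and 22 endosperm held 10.8, 5.11, 4.15 and 9.12 TPM at 16 °C, and 36.1, 25.5, 4.92 and 39.5 TPM at 26 °C. The endosperm recovery groups were at 23.4 TPM on day 18, then at 23.1 TPM on day 22. The day 18 endosperm group labelled 26 °C was the one warm group of the days that stood near its 16 °C partner. In the hour series the order turned: hours 1, 24 and 72 gave 122, 80.3 and 15.8 TPM at 16 °C, and 106, 31.0 and 1.30 TPM at 26 °C.

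Bo00916s040, the gene that came next, lost its warm excess after day 7. In embryo it was at 4.79, 4.40, 4.03, 2.83, 0.94, 0.52 and 0.93 TPM at 16 °C on days 0 to 22, and at 41.0, 33.9, 16.8, 0.077, 0.055 and 1.44 TPM at 26 °C on days 1 to 22. Embryo recovery was at 0.018 TPM on day 18, then at 0.53 TPM on day 22. In endosperm at 16 °C it was at 1.10, 0.79 and 2.56 TPM on days 0 to 3 and at 2.71, 1.44, 0.23 and 0.15 TPM on days 7 to 22. At 26 °C endosperm held 10.7 and 25.4 TPM on days 1 and 3, 8.89 TPM on day 7 and, on day 15, 0.096 TPM, and the gene was listed at 0 on days 18 and 22. Both tissues thus had more at 26 °C up to day 7, and from day 15 no value of the days was above 1.44 TPM. Recovery endosperm was at 0.17 TPM on day 18 and listed at 0 on day 22. The gene was listed at 0 at hours 1 and 24 at both temperatures, and at hour 72 it had 0.077 TPM in the cool against 13.0 TPM in warmth.

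**Figure D2:**
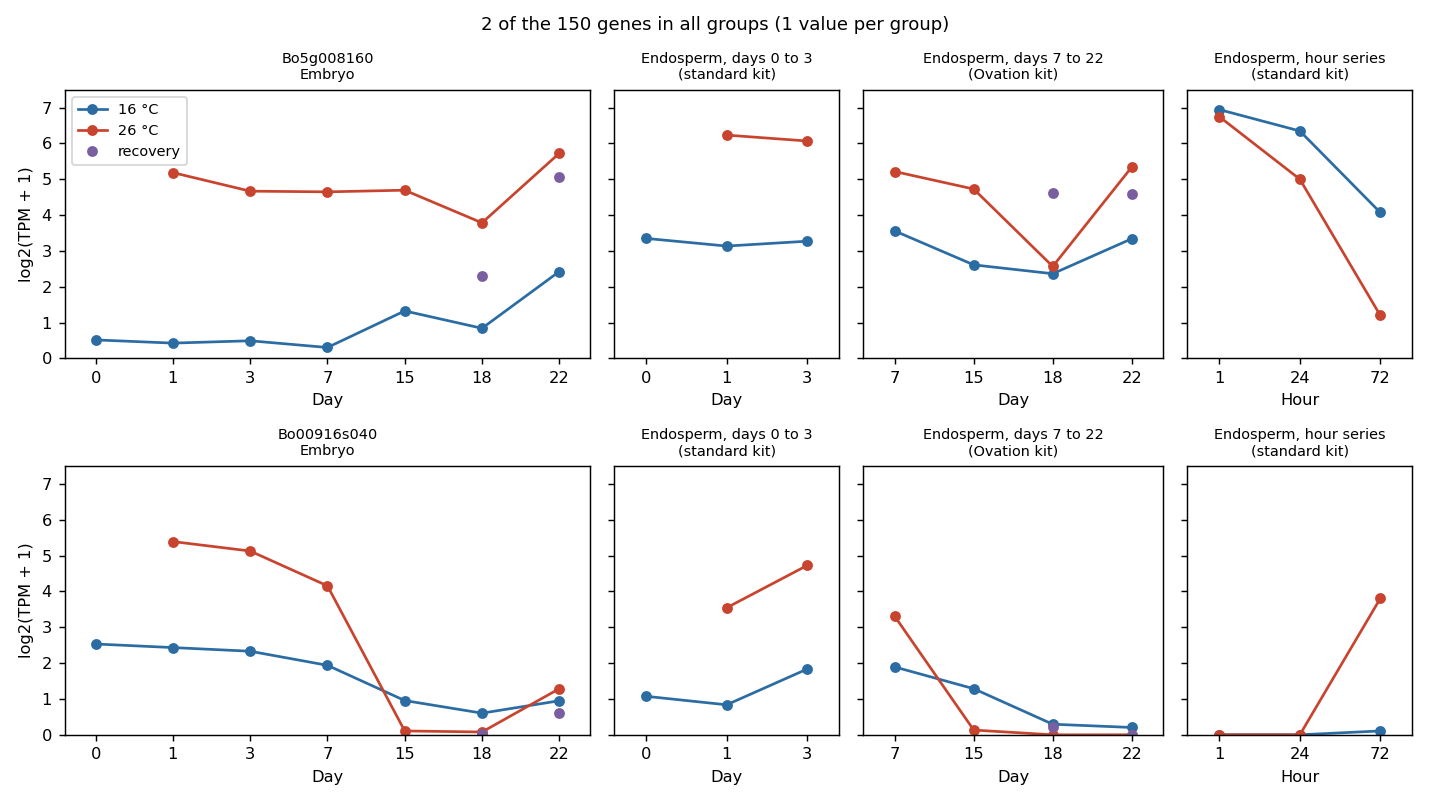
Level on the log2(TPM + 1) scale of the 2 genes that stood first by the rule, by day or hour, with 1 value per group, lines at 16 °C and 26 °C and separate points for recovery. Bo5g008160 stayed above its 16 °C level in warm embryo through day 22, whereas Bo00916s040 fell to 0.077 TPM in warm embryo on day 15.

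Most of the genes were higher at 26 °C on day 7 as well, a temperature difference that the choice did not use. The embryo 16 °C group of that day entered the choice only as one of those in which a gene could reach 1 TPM. In embryo 120 of the 150 genes (80%) were 2-fold higher and none lower, against 8.6% higher and 2.13% lower of all genes tested. All 150 lay above 0, with a median log2 difference of 1.40, where the median of all genes tested was 0.06. In endosperm 87 of 150 (58%) were higher and none lower, against 11% and 3.74% of all genes tested, with a median of 1.10 where all genes had 0.15. Subtracting the median of all genes gave 115 higher in embryo and 74 in endosperm. Scaling again without the 10 most abundant genes gave 117 and 76, and under both none was lower. In this endosperm set 148 of the 150 genes passed the filter of 1 TPM in at least 1 group, and counts here are out of all 150. In both tissues 78 genes were higher, 42 in embryo alone, 9 in endosperm alone and 21 in neither. Of the eligible genes, 4.37% were higher in both tissues, 6.69% in embryo alone, 7.98% in endosperm alone and 81% in neither. Whether the tissues differ in this could not be tested, and on day 7 their library kits differed too.

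The members with the largest day 7 difference were Bo5g008160 and Bo3g151400 in embryo. Bo3g151400 was at 200.4 TPM in warmth against 17.5 TPM in the cool. In endosperm that gene was at 109.8 against 5.46 TPM, and Bo8g065020 at 90.2 against 7.06 TPM. At the other end, Bo2g017840 was at 5.73 TPM in warmth against 9.19 TPM in the cool in endosperm on day 7, a log2 difference of -0.60. The share of higher genes on day 7 followed the order of the early ranking: 48, 42 and 30 of 50 in embryo for ranks 1 to 50, 51 to 100 and 101 to 150. In endosperm it was 36, 30 and 21 of 50. Of the 150 genes next in rank, 151 to 300, 75 (50%) were higher in embryo on day 7 and 72 (48%) in endosperm.

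On day 15 the 150 genes had no common direction in embryo. In warmth 27 genes were higher on that day and 32 lower, against 10.4% and 14.4% of all genes tested, and the median log2 difference was 0.04 where all genes had -0.18. Subtracting the median of all genes (centring) gave 37 and 27, and scaling again with the 10 most abundant genes left out (rescaling) gave 26 and 38. On day 18 there were 32 higher and 27 lower, against 14.1% and 18.8%, with a median of 0.05 where all genes had -0.15. Here centring gave 38 and 22, rescaling 24 and 37. The members' shares, 18% higher and 21.3% lower on day 15 and 21.3% higher and 18% lower on day 18, were much nearer to those of all genes than on day 7. The limit on the embryo course bears on this: without it, 49 of 150 were higher and 31 lower on day 15, with a median of 0.30, and 58 higher and 26 lower on day 18, with a median of 0.54. On day 15 Bo5g008160 had the largest excess, followed by Bo03352s010, which was at 14.7 TPM in warmth against 0.996 TPM in the cool. The largest deficits on day 15 were those of Bo4g030220, at 0.40 against 10.8 TPM, and Bo8g102950, at 0.39 against 9.37 TPM.

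The embryo groups moved at both temperatures between days 7 and 15. At 16 °C the median level went from 5.31 to 9.46 TPM, with 25 of the 150 genes 2-fold higher and none lower, against 5.88% and 7.32% of all genes tested. At 26 °C it went from 17.9 to 9.71 TPM, with 7 higher and 66 lower, against 8.38% and 23.4%. Between days 15 and 18 the genes were lower at both temperatures: 1 higher and 29 lower at 16 °C, against 0.479% and 2.55%, and 6 higher and 37 lower at 26 °C, against 5.55% and 8.96%.

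In endosperm the difference also narrowed after day 7. On day 15, 31 genes were higher and 7 lower, against 12% and 8.94% of all genes tested, with a median log2 difference of 0.49 where all genes had 0.01. In the group labelled 26 °C on day 18 there were 21 higher and 16 lower, against 11.5% and 12.1%, with a median of -0.23. A pseudocount of 0.1 turned the split to 24 and 33, and without the course limit it was 34 and 12, with a median of 0.06. With the group labelled recovery in its place there were 63 higher and 9 lower than at 16 °C, against 27.3% higher and 2572 of 14601 genes lower, with a median of 0.72. Centring gave 61 and 14, rescaling 59 and 19. The count for day 18 endosperm thus depended on which of these 2 groups is read as the warm one. Bo8g101110 was among the highest in endosperm at 26 °C on both days, at 469 against 40.1 TPM on day 15 and at 503 against 42.8 TPM on day 18. In the group labelled recovery it was at 1343 TPM on day 18.

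In endosperm more of the genes changed 2-fold at 26 °C than at 16 °C in both steps from day 7 to day 18. The same held over all genes tested. From day 7 to day 15 at 16 °C, 4 genes were higher and 3 lower, against 2.46% and 5.64% of all genes tested, or 6 and 1 after centring. At 26 °C 4 were higher and 51 lower, against 6.13% and 17%; centring gave 6 and 28, rescaling 6 and 34. From day 15 to day 18 there were 3 higher and 9 lower at 16 °C, against 1.01% and 1.35%. In the group labelled 26 °C there were 2 higher and 64 lower, against 3.6% and 9.64%; centring gave 7 and 44, rescaling 7 and 64.

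**Figure D3:**
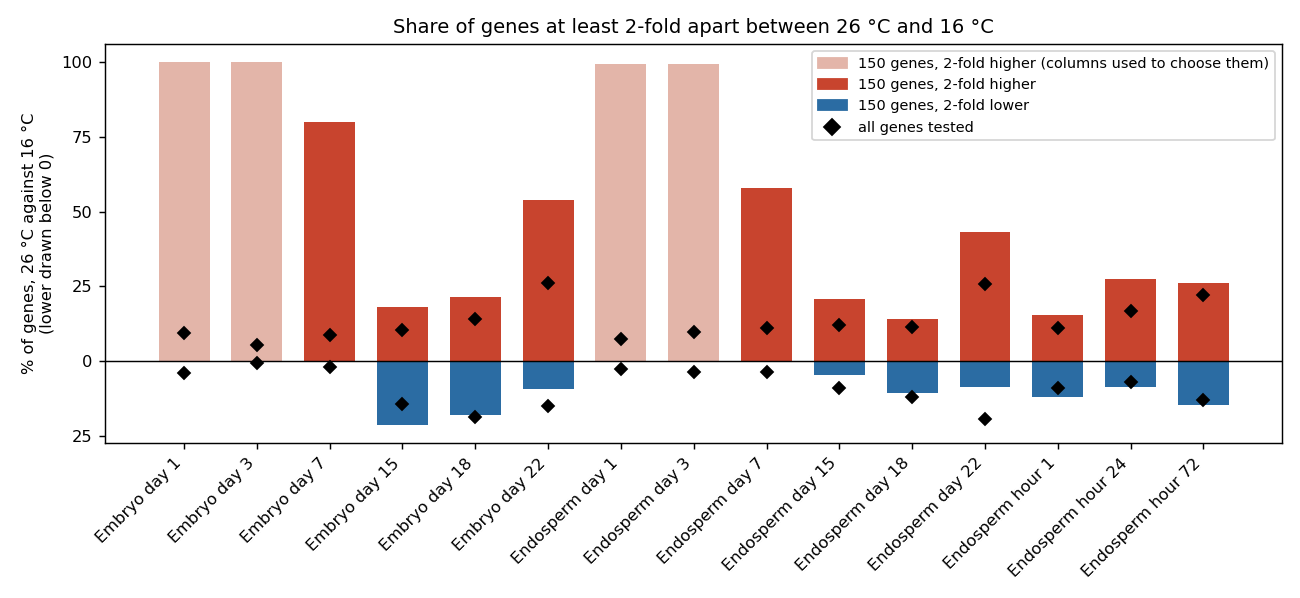
Percent of the 150 genes at least 2-fold higher (above 0) or lower (drawn below 0) at 26 °C than at 16 °C in each comparison, with diamonds for all genes tested; pale bars mark the comparisons that chose the genes. In embryo 80% of the genes were higher on day 7, 18% on day 15 and 54% on day 22.

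On day 22 more of the genes were higher at 26 °C again. In embryo 81 (54%) were higher and 14 lower, against 26% and 15% of all genes tested, with a median log2 difference of 1.09 where all genes had -0.00. The split was 58 and 20 after rescaling. The 16 °C group of day 22 entered the choice through the limit on its distance from day 0, so this comparison is not wholly apart from it. In endosperm 65 (43.3%) were higher and 13 lower, against 25.9% and 19.4%, with a median of 0.85 where all genes had 0.11. The excess was not particular to the 150: of the genes ranked 151 to 300, 45.3% were higher in embryo and 47.3% in endosperm. In embryo the share did not follow the early ranking, with 27 of 50 higher for each of ranks 1 to 50, 51 to 100 and 101 to 150. Both tissues had 50 of the 150 genes higher, where 17.3% of the eligible genes were higher in both. On both day 7 and day 22, 34 were higher in both tissues, where 1.34% of the eligible genes were. No gene was 2-fold higher in both tissues on all of days 7, 15, 18 and 22. That count rests on the endosperm group labelled 26 °C on day 18. With the group labelled recovery in its place, at least Bo5g008160, Bo03352s010 and Bo6g051230 passed. The eligible genes were not counted in this way. In embryo 63 genes were higher on days 7 and 22, as were 4.03% of the eligible genes. Of the 63, 28 were not higher on days 15 and 18, a count not taken for the eligible genes.

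From day 18 to day 22 at 26 °C, 103 genes were higher in embryo and 1 lower, against 12.4% and 4.29% of all genes tested, and the median level went from 4.97 to 18.1 TPM. At 16 °C the same step had 25 higher and none lower, against 3.96% and 2.73%, from 5.36 to 8.25 TPM. In endosperm at 26 °C there were 89 higher and 3 lower, against 25.3% and 14.6%, a count that rests on the group labelled 26 °C on day 18. At 16 °C endosperm had 18 higher and none lower, against 4.83% and 2.06%. From day 0 to day 22 in embryo at 16 °C, 26 genes were higher and 31 lower, against 10.8% and 47%. The choice limited this difference to 4-fold, and the split became 55 and 2 after centring and 36 and 16 after rescaling.

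Single genes went further than the median on day 22. Bo1g101080 was at 408.5 TPM in warmth against 28.0 TPM in the cool in embryo, and Bo3g034610 at 64.9 against 4.38 TPM. In endosperm Bo3g143350 was at 106 against 0.87 TPM and Bo5g086790 at 94.6 against 5.82 TPM. The lowest in embryo were Bo3g024160, at 0.38 against 8.32 TPM, and Bo6g083350, at 0.029 against 5.70 TPM.

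Bo4g192910 and Bo6g083350, the members with the largest deficits in warm endosperm on day 22, reversed during the course. At 16 °C Bo4g192910 was at 15.3, 11.1 and 137 TPM in endosperm on days 0, 1 and 3, and at 555, 811, 1350.25 and 880.4 TPM on days 7, 15, 18 and 22. At 26 °C it was at 76.9 and 611 TPM on days 1 and 3, and at 951, 124, 105 and 1.26 TPM on days 7 to 22. In recovery it was at 5.50 TPM on day 18, then at 20.7 TPM on day 22. Warm endosperm was thus above the 16 °C partner up to day 7 and below it from day 15, and recovery was below it on both days. Bo6g083350 had the same order, at 168, 239, 514 and 426 TPM at 16 °C on days 7 to 22 and at 515, 75.1, 213 and 4.42 TPM at 26 °C. Over the hours Bo4g192910 reached 0.21 TPM at most and Bo6g083350 0.12 TPM.

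**Figure D4:**
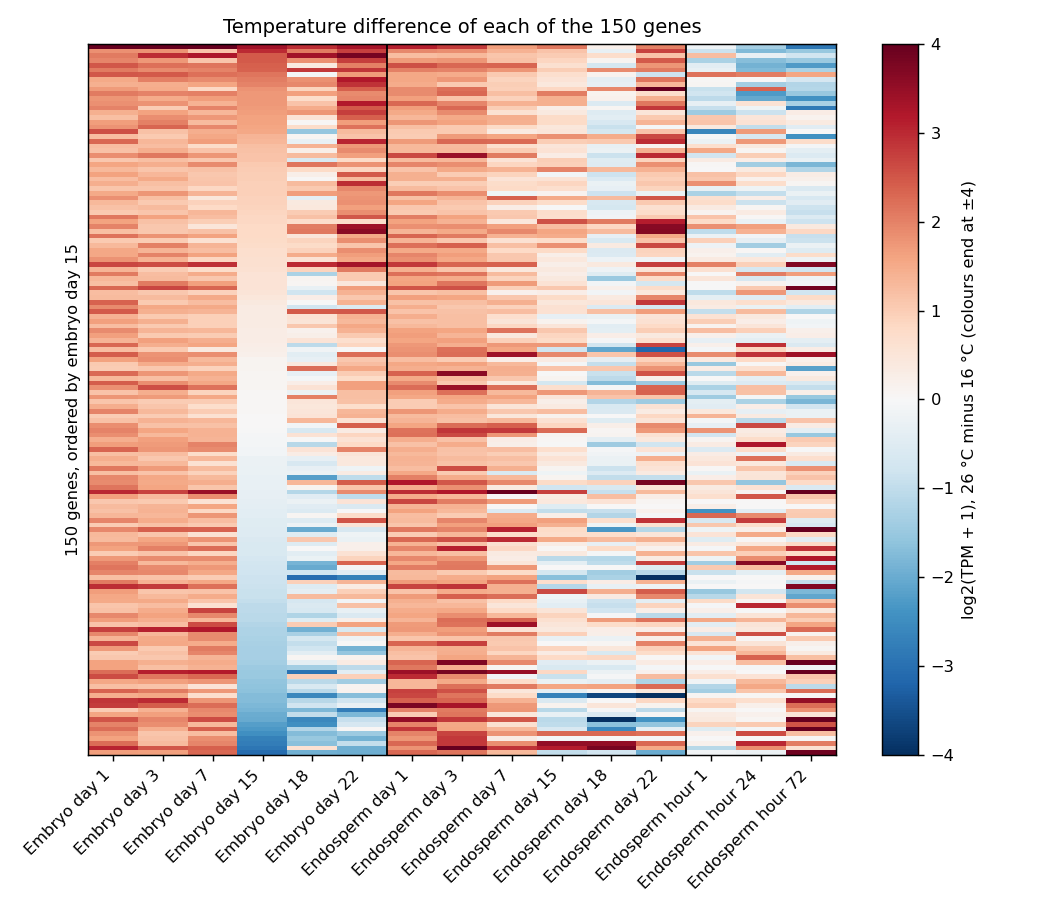
Log2 difference between 26 °C and 16 °C on the log2(TPM + 1) scale for each of the 150 genes (vertical axis, ordered by embryo day 15) in the 15 comparisons at one time (horizontal axis), with colours ending at 4 and -4. The colours are uniform on days 1 and 3, by the choice of the genes, while embryo day 15 runs from 3.37 to -3.07 and endosperm hour 72 tends to the opposite colour.

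The 150 genes parted into 3 groups on embryo day 15, a division made after its values were seen and followed only in other groups of samples. The 27 genes that were higher on day 15 had been higher on day 7 in 25 cases and were higher on day 22 in 25 cases, with a median log2 difference on day 22 of 2.16. Of the 644 eligible genes higher on embryo day 15, 17.2% were higher on day 7 and 85.4% on day 22, with a median of 1.66 on day 22. In endosperm 21 of the 27 were higher on day 22 and none lower, and of those eligible genes 73.6% were higher and 2.02% lower. The day 22 shares were thus close to those of the eligible genes, and the day 7 share was not. The 32 genes that were lower on embryo day 15 had been higher on day 7 in 29 cases, with a median of 1.89. On day 22, 3 of these 32 were higher in embryo and 11 lower, and in endosperm 8 were higher and 7 lower. Of the 636 eligible genes lower on embryo day 15, 15.4% were higher on embryo day 7; on day 22, 2.04% were higher and 53.8% lower in embryo, and 10.7% and 40.9% in endosperm. The 91 genes between had a median of 1.11 in embryo on day 22, with 53 higher and 3 lower. In embryo at 26 °C the higher, middle and lower groups had medians of 17.8, 19.0 and 16.5 TPM on day 7, and of 51.9, 18.4 and 5.67 TPM on day 22.

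The same groups differed in the endosperm hour series, which was made from other libraries. At hour 72, 1 of the 27 genes that were higher in embryo on day 15 was higher at 26 °C and 14 were lower, with a median log2 difference of -1.14. Of the 32 that were lower in embryo on day 15, 19 were higher at hour 72 and 1 was lower, with a median of 1.20. The order was not peculiar to the 150. Among the 5513 eligible genes, 644 were higher on embryo day 15 and 5.12% of them were higher and 30.6% lower at hour 72, while of the 636 that were lower on day 15, 34.9% were higher and 5.66% lower. Pearson's r between the embryo day 15 and hour 72 differences was -0.54 across the 150 genes and -0.38 across the eligible genes, given as a description across genes, which are not independent replicates, and with 1 value per group behind every point. The levels bear on these counts. At hour 72 at 16 °C the 27 genes had a median of 15.8 TPM and the 32 genes one of 1.38 TPM. A gene under 1 TPM in the cool cannot be 2-fold lower on log2(TPM + 1). The low level thus limited how many of the 32 could be lower. At hour 1 at 16 °C the 27 genes had a median of 89.6 TPM and the 32 genes one of 1.13 TPM.

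**Figure D5:**
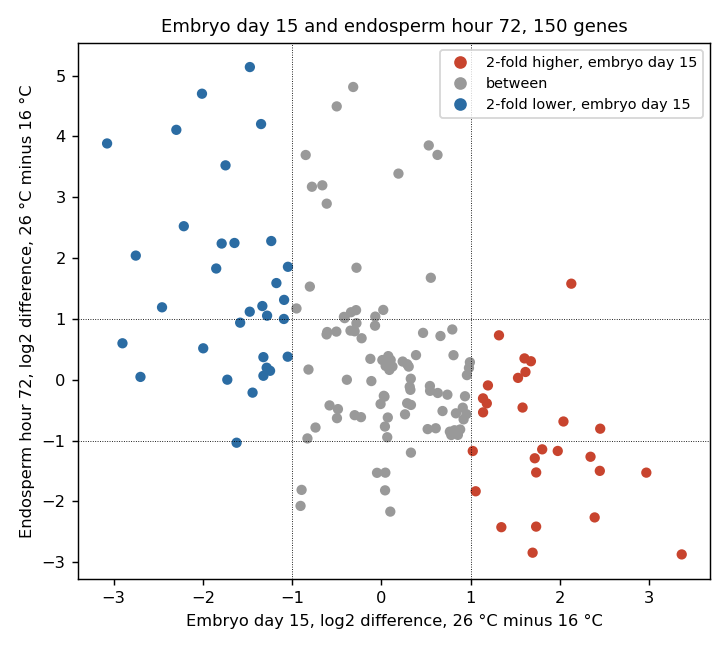
Log2 difference between 26 °C and 16 °C on the log2(TPM + 1) scale of each of the 150 genes in embryo on day 15 (horizontal axis) and in endosperm at hour 72 (vertical axis); dotted lines mark 2-fold. Of the 27 genes at the right, 14 lay below the lower line, and of the 32 at the left, 19 lay above the upper line.

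In the hour series more of the 150 genes were higher than lower at 26 °C at all 3 hours, as were more of all genes tested. The median lay above that of all genes at hour 24 and close to it at hours 1 and 72. At hour 1, 23 were higher at 26 °C and 18 lower, against 11.2% and 8.89% of all genes tested, and the median log2 difference was 0.08 where all genes had 0.05. At hour 24 there were 41 higher and 13 lower, against 16.8% and 7.12%, with a median of 0.36 where all genes had 0.12, and 36 and 15 after centring. At hour 72 there were 39 and 22, against 22% and 13.1%, with a median of 0.15, as all genes had, and centring made the split 31 and 27. In this series 143 of the 150 genes passed the filter of 1 TPM. Of the 150 genes, 4 were higher at all 3 hours and 2 were lower at all 3, while 14 were higher at one hour and lower at another. The eligible genes were not counted across the hours, so nothing is read from these 3 counts.

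The largest hour differences were those of Bo8g065020, at 40.7 TPM in warmth against 0.18 TPM in the cool at hour 72, and Bo3g151400, at 232 and 7.29 TPM. At hour 24 Bo3g047100 was at 204 against 15.4 TPM and Bo8g085930 at 39.1 against 3.29 TPM. At hour 1 Bo6g072920 was at 415 against 82.9 TPM, while Bo8g067350 was at 12.4 against 81.2 TPM. Bo2g166140 was at 48.6 TPM in warmth against 355 TPM in the cool at hour 72.

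Over the hours the level of the genes went down at both temperatures. From hour 1 to hour 24 the median went from 26.5 to 10.6 TPM at 16 °C, with 8 genes higher and 63 lower, against 21.8% and 15% of all genes tested. At 26 °C it went from 23.3 to 15.6 TPM, with 24 higher and 51 lower, against 27.5% and 16%. From hour 24 to hour 72 there were 17 higher and 25 lower at 16 °C, against 13.2% and 7.58%, and 27 higher and 54 lower at 26 °C, against 25.1% and 23.4%. Bo2g164210 went from 222 TPM at hour 1 to 4.75 TPM at hour 24 in the cool. In warmth Bo3g151400 went from 0.22 TPM at hour 24 to 232 TPM at hour 72.

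After the return to 16 °C, the embryo genes stood near the level of the 26 °C group on day 22. Against 26 °C, 2 of the 150 were higher in recovery and 9 lower, against 2.67% and 1.09% of all genes tested, or 4 and 2 after rescaling, with a median log2 difference of -0.24. Against 16 °C, 60 were higher and 9 lower, against 18.4% and 9.17%, or 46 and 17 after rescaling, with a median of 0.81. The median levels on that day were 15.02, 18.1 and 8.25 TPM for recovery, 26 °C and 16 °C. On day 18 recovery had 12 higher and 19 lower than 26 °C, against 2.16% and 3.66%. It had 16 higher and 28 lower than 16 °C, against 6.87% and 10.3%; centring gave 21 and 24, rescaling 14 and 37. On that day the medians of recovery, 26 °C and 16 °C were 3.97, 4.97 and 5.36 TPM. Both differences of a day share the recovery group, and each temperature group is also used in the comparison of 26 °C with 16 °C.

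In endosperm on day 22, recovery exceeded 26 °C in 3 genes and fell short of it in 14, against 3.43% and 2.2% of all genes tested, with a median of -0.42. Against 16 °C 48 were higher and 18 lower, against 21.6% and 17% of all genes tested, with a median of 0.38. The median level in recovery was 16.6 TPM, between the 26 °C and 16 °C medians of 20.8 and 10.5 TPM. On day 18 the group labelled recovery exceeded the one labelled 26 °C in 80 genes and fell short of it in 5, against 22.2% and 8.7% of all genes tested, with a median of 1.06. The recovery median of 20.8 TPM on day 18 lay beside the 26 °C median of day 22, also 20.8 TPM, and the day 18 median labelled 26 °C was 7.12 TPM. On day 18 Bo5g086790 was at 94.9 TPM in recovery against 3.52 TPM in the group labelled 26 °C, where it reached 94.6 TPM on day 22. In embryo the 26 °C median was also lower on day 18, at 4.97 TPM, than on day 22, at 18.1 TPM. Embryo recovery had a median of 3.97 TPM on day 18. The cause of the day 18 difference in endosperm was not tested.

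Before the treatment some of the genes differed between the tissues, in both directions, as did other genes. On day 0, 21 of the 150 (14%) were 2-fold higher in embryo and 39 (26%) lower than in endosperm, with a median log2 difference of -0.01. Of the 9726 genes in both tables, 26% were higher and 21.9% lower, and of the eligible genes 21.6% and 23.5%. The tables may have been scaled separately, which touches any level set across them. Bo1g011460 was the gene furthest toward embryo, at 101.3 against 1.15 TPM, and Bo1g134560 the one furthest toward endosperm, at 26.2 TPM against 0.53 TPM in embryo. From day 0 to day 3 at 16 °C endosperm had 7 genes higher and 3 lower, against 1.32% and 0.651% of all genes tested. The 16 °C group of day 3 helped to choose the genes, so nothing is read from these 2 counts.

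The identifiers carry a number that by the naming custom of this genome gives the chromosome. The 150 genes were spread over all 9 numbers, from 11 genes (7.33%) on 9 to 28 genes (18.7%) on 3, where the eligible genes had 11.7% and 15.7%. Another 6 had identifiers of unplaced sequence. Within steps of 50 in the identifier number, 4 pairs of neighbours were found. Neighbours can be copies of one gene that share reads, and this was not tested.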

How the data were processed

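RNA from dissected embryo and from endosperm with seed coat was sequenced in 107 libraries. Per the submitters' processing notes, cutadapt 1.9.1, STAR 2.5 and featureCounts were used; build, annotation and pooling are not given in the sources used. The deposited values are TPM, 1 per group, in 1 table per tissue, and the listed genes hold 47% to 76.7% of the TPM total. Neither replicate values nor read depth could be had from them, so limma was not run and no interval is given. With Python 3.11.15, pandas 2.3.3 and numpy 2.4.6, differences were taken on log2(TPM + 1), and 2-fold changes were counted beside those of all genes at 1 TPM or more in at least 1 group of a set. The code of the ranking was checked on simulated data with clear changes put in, which says nothing about how reliable the 150 genes are. Genes named are those with the 2 largest positive and 2 largest negative differences of a comparison at 5 TPM or more in the higher group, the first 2 and last 2 by the rule and its nearest neighbours outside; some were followed in further groups after their values were seen. The 150 genes and the lists were chosen with earlier results of these data known. Fixed lists of pathway and tissue marker genes were not used, because no identifier could be paired with a name. Alternatives were a pseudocount of 0.1, median centring, rescaling without the 10 most abundant genes, a filter on the groups compared, and 2 other choices of the 150.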

Additional observations from a re-analysis of the deposited data

Results flagged for a closer look

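Genes that passed 2-fold in opposite directions in neighbouring times or in both tissues are counted here, and none of these differences was tested, since each group has 1 value. In embryo 29 of the 150 genes were higher at 26 °C on day 7 and lower on day 15, as were 98 of the 5513 eligible genes. Of the 150, 1 was higher on day 15 and lower on day 18, and 1 was lower on day 15 and higher on day 18. Another 5 were lower in embryo on day 18 and higher on day 22. In endosperm 4 were higher on day 7 and lower on day 15, and 1 was lower on day 18 and higher on day 22, a count that rests on the group labelled 26 °C on day 18. In the hour series 1 gene was higher at hour 1 and lower at hour 24, and 9 went the other way. From hour 24 to hour 72, 3 turned from higher to lower and 1 from lower to higher. Between the tissues, 4 genes were lower in embryo and higher in endosperm on day 15, as were 52 of the eligible genes. On day 18 there were 2 such genes, a count that rests on the endosperm group labelled 26 °C. On day 22, 2 were higher in embryo and lower in endosperm, and 2 the reverse. Where no count of eligible genes stands beside a count here, none was taken, and nothing is read from it.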

How the results depend on the processing

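No paired analysis was possible because the tables hold 1 value per group; leaving out replicates, a replicate block and limma were not run for the same reason. Of 366 recomputed counts of genes higher or lower, 310 stayed within 1.5 times the reported count and 56 did not. Of the 310, the 38 under the filter on the groups compared were fixed in advance. A gene under 1 TPM in both groups cannot differ by 1 log2 unit. Counts for days 1 and 3 are also among the 366. They rest on the groups that chose the genes, so nothing is read from how they held. The choice by centred differences moved none of its 38 counts, but it shared 147 of the 150 genes. For the other alternatives the cause was not tested. Of 183 recomputed medians, 86 moved by more than 0.1 log2 or changed sign, 12 of them in sign; these were 26 under centring, 21 under the pseudocount, 20 under rescaling, 18 of 19 without the course limit and 1 under the filter, and none by centred choice. The pseudocount and both scalings for days 1 and 3 were added after seeing the data. Without the limit on the embryo course, 99 of the 150 genes were shared. The genes higher at 26 °C then numbered 49 on embryo day 15, 58 on embryo day 18, 52 on endosperm day 15 and 34 on endosperm day 18. Those lower were 9 in embryo and 8 in endosperm on day 22, and 31, 37 and 46 at hours 1, 24 and 72. In recovery, 43 were lower than at 26 °C and 33 higher than at 16 °C in embryo on day 18, 1 was higher than at 26 °C in embryo on day 22, and 5 were lower than at 16 °C in endosperm on day 18.

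With a pseudocount of 0.1, the genes lower at 26 °C were 11 on endosperm day 15 and 33 on day 18, and 35 were higher at hour 1. In recovery, 30 were lower than at 26 °C and 43 lower than at 16 °C in embryo on day 18, 7 were higher than at 26 °C and 14 lower than at 16 °C in embryo on day 22, and 16 were lower than at 16 °C in endosperm on day 18. Over time in embryo at 16 °C, 2 were lower from day 7 to 15, 3 higher and 51 lower from day 15 to 18, and 44 higher and 1 lower from day 18 to 22; at 26 °C, 4 were lower from day 18 to 22. In endosperm at 16 °C, 13 were higher and 8 lower from day 0 to 3, 12 lower from day 7 to 15, 16 lower from day 15 to 18, 4 lower from day 18 to 22 and 30 higher from hour 24 to 72. At 26 °C, 6 were higher from day 15 to 18 and 6 lower from day 18 to 22.

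With median centring, 14 were lower in recovery than at 16 °C on endosperm day 18. In embryo at 16 °C, 55 were higher and 2 lower from day 0 to 22, and 2 higher and 17 lower from day 15 to 18. In endosperm 1 was lower from day 7 to 15 at 16 °C; at 26 °C, 28 were lower from day 7 to 15, 7 higher from day 15 to 18 and 6 lower from day 18 to 22.

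With rescaling, embryo recovery on day 22 was above 26 °C in 4 genes, below it in 2, and below 16 °C in 17. On endosperm day 18, 8 were lower in recovery than at 26 °C and 19 lower than at 16 °C. In embryo at 16 °C, 16 were lower from day 0 to 22, 1 lower from day 7 to 15, 2 higher from day 15 to 18 and 1 lower from day 18 to 22; at 26 °C, 2 were lower from day 18 to 22. In endosperm at 26 °C, 7 were higher from day 15 to 18 and 7 lower from day 18 to 22. Rescaling moved the median of all genes in embryo on day 18 from -0.15 to -0.35.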
